A study of Mus musculus with 10 samples.

Results

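Klhl6 and 8 genes of the B lymphocyte lineage, Cd79a, Cd79b, Ms4a1, Cd22, Blk, Ighm, Pax5 and Cd37, were followed in interscapular brown adipose tissue (iBAT) of mice with and without the retinol saturase gene RetSat in brown adipocytes. These 9 genes, of 55414 in the count tables, were chosen by symbol after Klhl6 had been seen among the genes higher in the deleted mice, so their levels in that contrast are given as a description and not as a test. RNA of whole iBAT was sequenced from 5 Cre- mice, RetSat flox/flox without the Ucp1-Cre transgene, and 5 Cre+ mice, RetSat flox/flox with Ucp1-Cre. All were male C57BL/6J mice of 12 to 14 weeks on normal chow. Floxed RetSat alleles, in which loxP sites flank part of the gene, were thus present in both groups, and Cre was driven by the promoter of Ucp1, which is active in brown adipocytes.

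B cells carry an antigen receptor made of an immunoglobulin, whose heavy chain of the M class is encoded by Ighm, and a signalling pair encoded by Cd79a and Cd79b. Src family kinases such as the product of Blk relay its signal, the surface protein encoded by Cd22 restrains it, and the transcription factor encoded by Pax5 keeps a cell in the B lineage and drives many of the other genes named here. Ms4a1 encodes CD20, Cd37 encodes a tetraspanin found on B cells and at lower levels on other leukocytes, and Klhl6 encodes a Kelch-like adaptor of Cullin 3 ubiquitin ligases that is needed for germinal centres in mice.

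Promoter sequences show where the letters bound by B lineage factors lie in these genes, and they were available from RefSeq for 5 of the 9 members (build GRCm38.p6, an older build than the GRCm39 of the count tables). Each window runs from 250 bases before to 50 bases after the transcription start, on the strand of the gene. The windows were searched on both strands for the octamer ATGCAAAT, for GAGGAAGT of PU.1 and ETS factors, for TCCC and GGGA with any 2 bases between them (EBF1) and for the E-box CAGGTG of E2A. None of these motifs holds another of them. Klhl6 and Cd79a, Cd22 and Cd37 are printed to set the called gene beside B cell genes with a match. Capitals mark the matches, which on the reverse strand appear as their complement, and a window without capitals has none.
Klhl6, chr16:19983000-19983299, minus strand: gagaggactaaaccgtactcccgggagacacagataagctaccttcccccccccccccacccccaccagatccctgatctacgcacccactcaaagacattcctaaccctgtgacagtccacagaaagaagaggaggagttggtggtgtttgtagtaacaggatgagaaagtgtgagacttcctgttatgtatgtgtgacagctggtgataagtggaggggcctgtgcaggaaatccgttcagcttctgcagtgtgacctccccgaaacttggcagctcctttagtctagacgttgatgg
Cd79a, chr7:24897247-24897546, plus strand: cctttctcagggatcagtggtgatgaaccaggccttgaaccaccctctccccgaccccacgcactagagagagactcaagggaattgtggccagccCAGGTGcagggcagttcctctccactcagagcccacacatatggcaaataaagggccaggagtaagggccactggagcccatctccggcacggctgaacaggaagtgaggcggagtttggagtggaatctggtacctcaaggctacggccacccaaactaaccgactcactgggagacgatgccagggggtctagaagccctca
Cd22, chr7:30878979-30879278, minus strand: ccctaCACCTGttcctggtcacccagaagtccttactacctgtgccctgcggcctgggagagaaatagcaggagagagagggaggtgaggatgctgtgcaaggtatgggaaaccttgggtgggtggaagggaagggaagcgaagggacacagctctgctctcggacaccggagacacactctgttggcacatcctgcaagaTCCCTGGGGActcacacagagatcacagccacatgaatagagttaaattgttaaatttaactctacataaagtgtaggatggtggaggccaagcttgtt
Cd37, chr7:45238790-45239089, minus strand: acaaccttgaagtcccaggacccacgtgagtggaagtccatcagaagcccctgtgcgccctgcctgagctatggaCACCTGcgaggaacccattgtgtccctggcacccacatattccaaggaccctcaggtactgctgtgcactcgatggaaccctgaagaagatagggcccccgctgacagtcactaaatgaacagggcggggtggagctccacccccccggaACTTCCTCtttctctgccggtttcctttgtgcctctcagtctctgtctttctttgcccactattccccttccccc

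In the Cd79a window the E-box began 154 bases before the start. Cd22 had an EBF1 match beginning 49 bases before the start and an E-box beginning 245 bases before it. Cd37 had the PU.1 and ETS letters from 25 bases and an E-box from 175 bases before the start. The windows of Klhl6 and Pax5 held none of the 4 motifs. Of 32851 promoters of the same length, 1.74% held the octamer, 3.2% the PU.1 and ETS letters, 0.904% the EBF1 letters and 20.2% the E-box. A match is a string of letters and not a measured binding site. Only these exact letters were searched. Forms that differ by a base were not counted, and a window without a match can hold such forms.

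The libraries held 91903095 to 132499312 counts in Cre- mice, and 96991071 to 110293494 in Cre+ mice. Levels are given as CPM, counts divided by the library size after TMM scaling. RetSat ranged from 151 to 255 CPM in Cre- mice against 18.0 to 39.0 CPM in Cre+ mice, as the labels require, and its log2 fold change was -2.95 (SE 0.24, n = 5 and 5). Skeletal muscle genes stood apart in a pair of libraries, with a summed level of 506 CPM in Cre- replicate 2 and 244 CPM in Cre+ replicate 4, against 1.12 to 18.7 CPM in the other 8. Cre+ replicates 1, 4 and 5 carry an added letter in their library identifier, whose meaning the labels do not give, and no Cre- library does. Nothing in the labels says when or where single libraries were made. All 9 members were detected in every mouse, but at low levels. Counts ranged from 1 in a mouse for Blk to 1370 for Ighm, where Ucp1, the thermogenic protein of brown fat, had a mean of 4222 CPM in Cre- mice. Both mates of a pair could add a count, so the number of fragments is smaller than the count.

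The members did not all move together. Of the 8 that passed the filter on low counts, 7 had a log2 fold change of Cre+ against Cre- mice above 0, as had 50.3% of all 17690 genes tested, and Ighm was the exception. Their fold changes ran from -0.42 to 1.17, with a median of 0.94 beside 0.00 for all genes tested. In Klhl6, Cd79b and Cd37 every Cre+ mouse lay above every Cre- mouse, a pattern that 1.2% of genes tested showed, and the reverse, seen in 1.47% of them, occurred in no member. The groups overlapped in Cd79a, Ms4a1, Cd22, Blk, Ighm and Pax5. At an adjusted p under 0.05 in edgeR's quasi-likelihood fit, 1 member, Klhl6, was called higher (0.0339% of genes tested), and DESeq2 called 3, Klhl6, Cd79b and Cd37 (1.06%). These shares are background for the count, which the choice of members from this contrast fixes in part. In whole tissue, more B cells and more RNA per B cell cannot be told apart, and the same holds for fewer cells and less RNA.

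**Figure D1:**
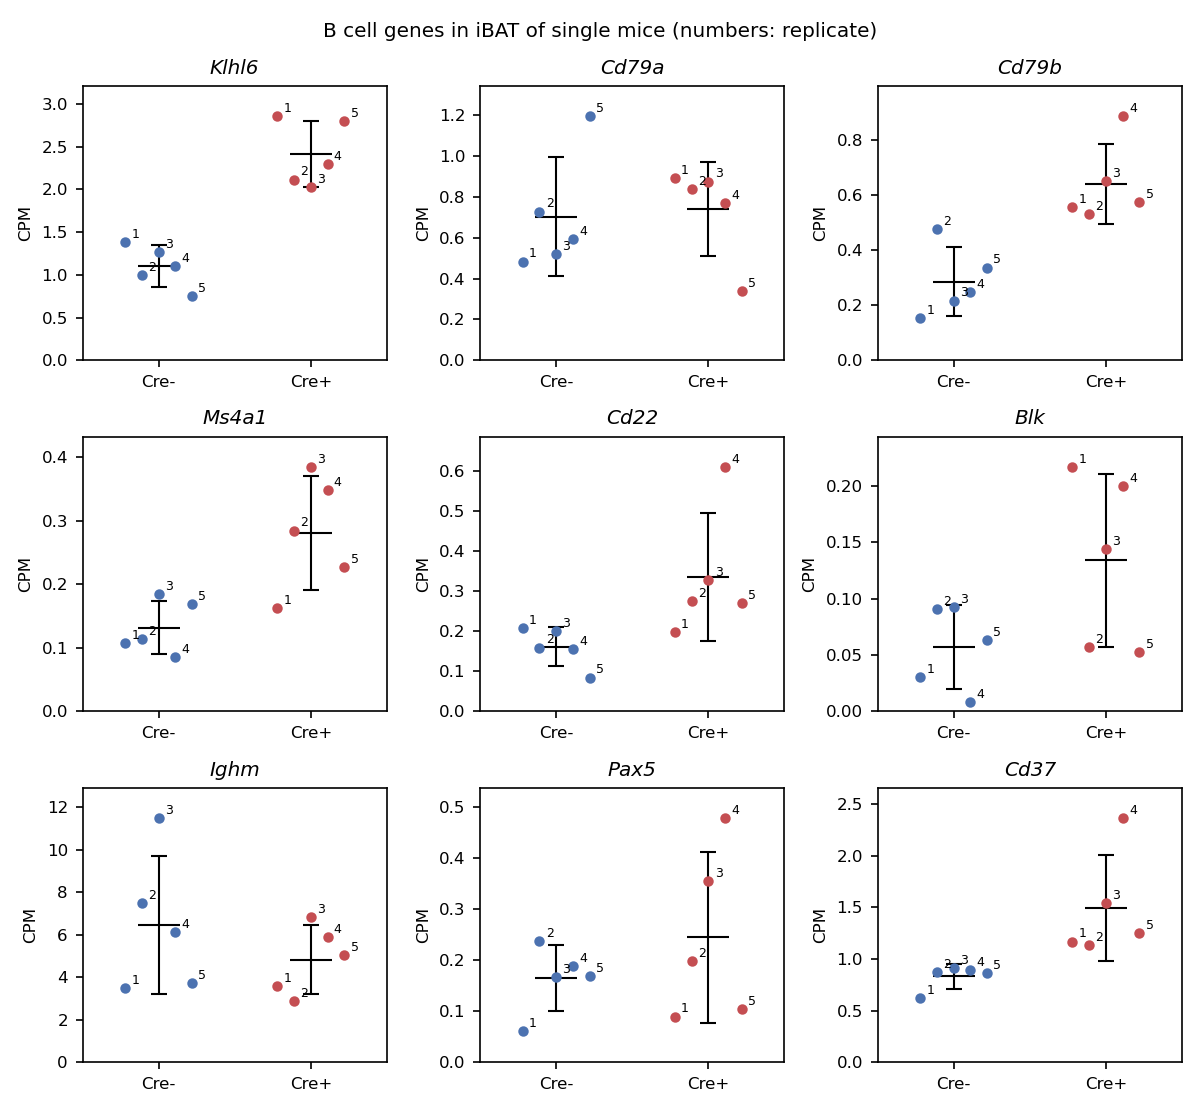
CPM of the 9 members (y axis, from 0, one scale per panel) in single mice of both genotypes. Points are mice with their replicate number, and the black bar and whiskers are the mean and SD (n = 5). Klhl6, Cd79b and Cd37 do not overlap between genotypes, the ranges of Cd79a and Ighm overlap widely, and Cre+ replicate 4 is the highest point in Cd79b, Cd22, Pax5 and Cd37. In Cd79a, replicate 5 is the highest Cre- point and the lowest Cre+ point.

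Klhl6 (ENSMUSG00000043008.10, GRCm39 chromosome 16, 19765246 to 19801787, minus strand) had 1.39, 1.00, 1.26, 1.10 and 0.749 CPM in Cre- replicates 1 to 5. In Cre+ replicates 1 to 5 it had 2.85, 2.12, 2.02, 2.29 and 2.80 CPM. The lowest Cre+ mouse thus lay well above the highest Cre- mouse, and both groups were compact, with a coefficient of variation of 22.4% in Cre- and 16.0% in Cre+ mice. The means were 1.10 ± 0.246 and 2.42 ± 0.387 CPM (SD, n = 5), and the log2 fold change was 1.13 (SE 0.18). No annotated gene lay within 20000 bp of Klhl6, and the gene overlaps none. Within Cre+ mice, the 3 libraries with the added letter had 2.29 to 2.85 CPM and the other 2 had 2.02 to 2.12 CPM, both ranges above the 1.39 CPM of the highest Cre- mouse. Without the lettered libraries the log2 fold change was 0.90 (SE 0.24) and Klhl6 was no longer called. The call was also lost without any 1 of Cre- replicates 2, 3, 4 and 5 or Cre+ replicates 1 and 5, with fold changes of 1.03 to 1.23 over all 10 single omissions. It held without the muscle-rich Cre+ replicate 4 (1.15), and without it together with Cre- replicate 2 (1.12). In a fit with the replicate number as a block, Klhl6 was not called (1.15, SE 0.19).

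The signalling pair of the receptor split. Cd79b (ENSMUSG00000040592.12, chromosome 11, 106202167 to 106205588, minus strand) had 0.153, 0.477, 0.218, 0.249 and 0.337 CPM in Cre- replicates 1 to 5 and 0.558, 0.531, 0.653, 0.887 and 0.576 CPM in Cre+ replicates 1 to 5. Its lowest Cre+ mouse, replicate 2, lay just above its highest Cre- mouse, which was also replicate 2. The log2 fold change was 1.17 (SE 0.29), and 1.03 (SE 0.30) without Cre+ replicate 4. Without that mouse and Cre- replicate 2, the muscle-rich pair, it was 1.28 (SE 0.28), and edgeR then called Cd79b too. The sodium channel gene Scn4a of skeletal muscle lies 3830 bp away on the same strand, with mean levels of 0.273 (Cre-) and 0.191 CPM (Cre+).

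Cd79a (ENSMUSG00000003379.8, chromosome 7, 24596806 to 24601622, plus strand) encodes the partner of the CD79B protein in the receptor. Its Cre- mice had 0.483, 0.727, 0.519, 0.592 and 1.19 CPM and its Cre+ mice 0.891, 0.835, 0.873, 0.767 and 0.341 CPM. The highest and the lowest of all 10 mice were thus Cre- replicate 5 and Cre+ replicate 5, against the order of the group medians. Apart from these mice, every Cre+ mouse (0.767 to 0.891 CPM) lay above every Cre- mouse (0.483 to 0.727 CPM). They were set aside after their values were seen, as the most discordant mouse of each group, which favours such a separation. No fit without both was run. The log2 fold change was 0.08 (SE 0.30), and its sign turned when Cre- replicate 1 (-0.028) or Cre- replicate 3 (-0.01) was left out. It was 0.36 (SE 0.28) without Cre- replicate 5 and 0.27 (SE 0.27) without Cre+ replicate 5. Per exon length, the ratio of Cd79a to Cd79b ran from 1.50 to 3.47 in Cre- mice and from 0.580 to 1.57 in Cre+ mice. The ranges of that ratio met only at their ends, with a median of 2.34 in Cre- and 1.31 in Cre+ mice. Arhgef1, a highly counted gene on the same strand, lies 715 bp from Cd79a with mean levels of 77.1 (Cre-) and 80.7 CPM (Cre+), and reads past its end were not measured here.

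Ighm (ENSMUSG00000076617.10, chromosome 12, 113382178 to 113386350, minus strand), the constant region of the IgM heavy chain, was the most abundant member and the one with a negative fold change. It had 3.50, 7.48, 11.5, 6.14 and 3.71 CPM in Cre- replicates 1 to 5. Cre+ replicates 1 to 5 had 3.57, 2.87, 6.81, 5.89 and 5.03 CPM, all within or just below the range of the Cre- mice. The log2 fold change was -0.42 (SE 0.35), and -0.11 without Cre- replicate 3, the highest mouse. Against Cd79b per exon length, Ighm stood at 8.35 to 40.0 in Cre- mice and at 4.09 to 7.92 in Cre+ mice, ranges that did not overlap, where Cd79b itself does not overlap between genotypes. The same ratio to Cd79a overlapped, with 2.41 to 17.1 in Cre- mice against 2.65 to 11.4 in Cre+ mice. The kappa light chain gene Igkc, chosen after its values were seen, ranged from 0.180 to 0.569 CPM in Cre- mice and from 0.422 to 1.27 CPM in Cre+ mice. Its highest mouse was Cre+ replicate 4, where Ighm took rank 5 among the 10 mice.

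Among the genes of surface proteins, the groups of Cd37 were apart and those of Ms4a1 and Cd22 overlapped at 1 Cre+ mouse. Cd37 (ENSMUSG00000030798.16, chromosome 7, 44883056 to 44888539, minus strand) had 0.621, 0.875, 0.912, 0.893 and 0.865 CPM in Cre- mice and 1.17, 1.14, 1.55, 2.36 and 1.25 CPM in Cre+ mice. Cre- mice apart from the low replicate 1 lay close together, whereas Cre+ replicate 4 stood far above the other Cre+ mice. The log2 fold change was 0.84 (SE 0.22), and 0.61 (SE 0.18) without that mouse. Cd37 overlaps Tead2 on the other strand, and since strand was not used, reads in the shared stretch cannot be told apart. The mean of Tead2 was 3.15 CPM without and 3.29 CPM with Cre, and its log2 fold change 0.06 (SE 0.18).

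Ms4a1 (ENSMUSG00000024673.10, chromosome 19, 11227039 to 11243605, minus strand), the CD20 gene, had 0.107, 0.114, 0.184, 0.0859 and 0.169 CPM in Cre- mice and 0.162, 0.285, 0.384, 0.349 and 0.227 CPM in Cre+ mice. Cre+ replicate 1 was the mouse inside the Cre- range. These levels stand for 10 to 40 counts in a mouse, and the log2 fold change was 1.09 (SE 0.33). Cd22 (ENSMUSG00000030577.15, chromosome 7, 30564827 to 30579767, minus strand) had 0.207, 0.159, 0.201, 0.155 and 0.0844 CPM in Cre- and 0.198, 0.275, 0.326, 0.608 and 0.271 CPM in Cre+ mice. Again Cre+ replicate 1 lay inside the Cre- range, and Cre+ replicate 4 was the highest by far. The log2 fold change of Cd22 was 1.04 (SE 0.35), and 0.71 (SE 0.32) without Cre+ replicate 4.

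The kinase gene Blk (ENSMUSG00000014453.5, chromosome 14, 63610285 to 63654486, minus strand) was too low for the test. It had 0.0306, 0.0909, 0.0920, 0.00859 and 0.0633 CPM in Cre- mice and 0.216, 0.0569, 0.144, 0.199 and 0.0524 CPM in Cre+ mice. Cre+ replicates 1, 3 and 4 lay above every Cre- mouse, and Cre+ replicates 2 and 5, with 6 counts each, lay inside the Cre- range. The ratio of the means was 2.34 and rests on 101 counts in all. Pax5 (ENSMUSG00000014030.16, chromosome 4, 44524757 to 44710487, minus strand), the lineage factor, had 0.0613, 0.239, 0.167, 0.189 and 0.169 CPM in Cre- mice and 0.0900, 0.199, 0.355, 0.478 and 0.105 CPM in Cre+ mice. Only Cre+ replicates 3 and 4 exceeded the highest Cre- mouse. Its log2 fold change of 0.58 (SE 0.48) fell to 0.19 (SE 0.47) without Cre+ replicate 4.

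**Figure D2:**
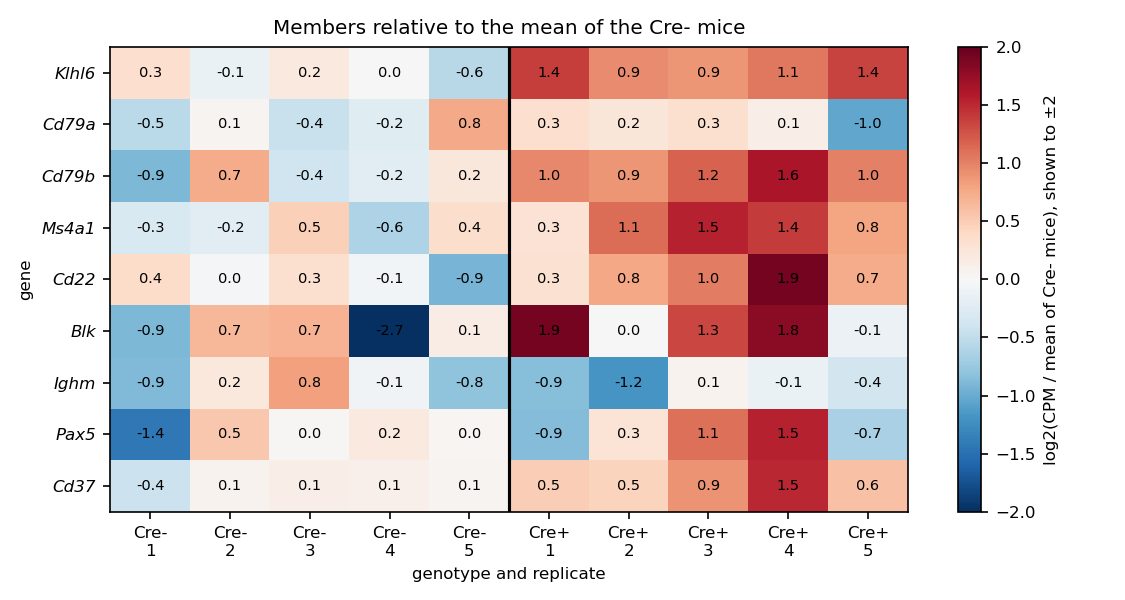
Level of each member in each mouse as log2 of its CPM over the mean CPM of the 5 Cre- mice (colour, cut at 2 in both directions, with the value printed). Rows are genes and columns mice, with a line between genotypes. The Klhl6 row is red in all 5 Cre+ mice with its highest values in replicates 1 and 5, whereas the rows of Cd79b, Ms4a1, Cd22, Pax5 and Cd37 are reddest in replicates 3 and 4. The Blk row is reddest in Cre+ replicates 1 and 4.

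Which Cre+ mouse was highest differed among the members. Cd79b, Cd22, Pax5 and Cd37 were highest in Cre+ replicate 4 and second in Cre+ replicate 3, and Ms4a1 had these mice in the opposite order. Klhl6 was highest in Cre+ replicates 1 and 5, with replicate 3 the lowest of the Cre+ mice. Among Cre+ mice, replicate 1 was also the highest in Blk (0.216 CPM) and Cd79a (0.891 CPM). In Ighm it was replicate 3 (6.81 CPM). To compare mice within genotypes, the genotype mean was removed from the log2 CPM of the 8 tested members, and the 28 pairs of members were correlated over the 10 mice. All pairs share the same libraries, their scaling and, for the low genes, large counting error. In the 21 pairs without Klhl6, Pearson's r ran from -0.37 to 0.85 with a median of 0.43, and 19 were positive. In the 7 pairs with Klhl6, r ran from -0.76 to 0.30 with a median of -0.52, and 2 were positive.

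Pax5 and Cd37 were the most alike (r = 0.85, exact permutation p = 0.00833 within genotypes, Spearman's rho = 0.81 with exact permutation p = 0.0156, n = 10), and r was 0.79 without the 2 mice farthest from the median of Pax5. Pax5 and Cd79b had r = 0.71 (exact permutation p = 0.00563) and rho = 0.81 (exact permutation p = 0.00319), and r was 0.62 without the 2 mice farthest from the median of Cd79b. The pair most unlike was Klhl6 and Cd79a (r = -0.76, exact permutation p = 0.0105, rho = -0.61 with exact permutation p = 0.0799, n = 10), with r = -0.58 without the 2 mice farthest from the median of Klhl6. After Benjamini-Hochberg adjustment over the 28 pairs no exact permutation p was under 0.05 (the lowest was 0.0734, for n = 10), where 5 were before it. The tests were two-sided. No pair, with or without Klhl6, therefore passed the correction. Whether the pairs with Klhl6 differ from the other pairs was not tested. Without any 1 mouse, the median r of the pairs with Klhl6 was -0.58 to -0.42.

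**Figure D3:**
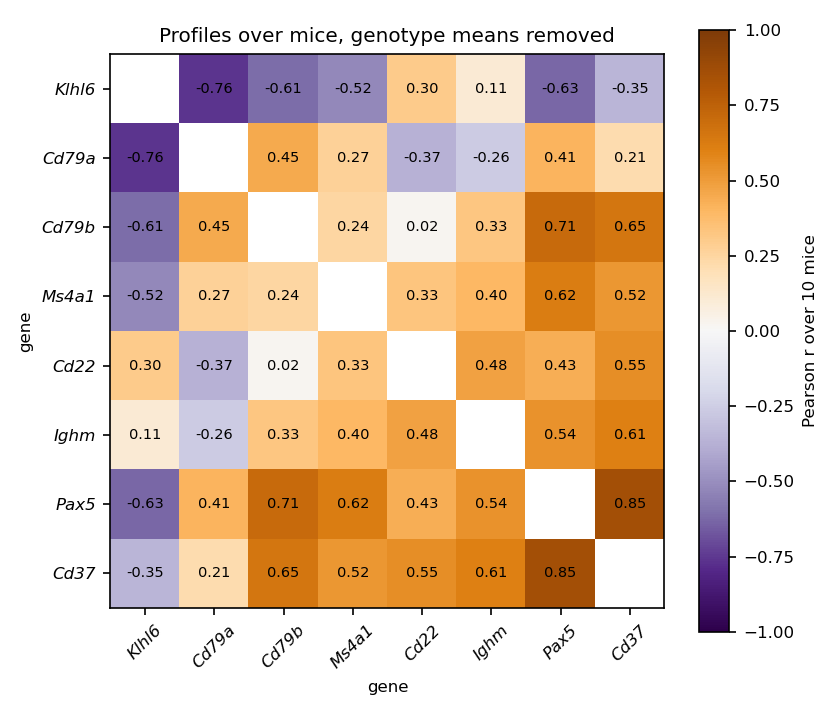
Pearson r between the log2 CPM of the 8 tested members over 10 mice after the mean of each genotype was removed (colour and printed value, from -1 to 1). The Klhl6 row is negative with 5 of the 7 other members, and Pax5 and Cd37 have the highest value, 0.85.

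A search for like mouse-to-mouse profiles took in the tested genes with a symbol, apart from predicted and clone names, whose mean log2 CPM was at least 0, a floor that leaves out most B cell genes. The profiles most like that of Klhl6 were those of Hmgn1 (r = 0.96), Mrtfa (0.94), Creld2 (0.94), Vsig10 (0.92) and Fam71e1 (0.91), among 11407 genes searched and over 10 mice. For the mean profile of the other tested members they were Eif4g3 (0.95), Acox2 (0.95), Fto (0.94), Deptor (0.94) and Ptpn14 (0.93). These are the extremes of a search over many genes with 10 mice and are given as a description.

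Compared per exon length, as counts per base of exon scaled to the same sum in every library (TPM), Ighm was the highest member in both genotypes, with means of 8.06 ± 4.47 TPM in Cre- and 6.55 ± 2.27 TPM in Cre+ mice (SD, n = 5). In Cre- mice Cd79a (1.12 TPM) and Klhl6 (0.979 TPM) followed with overlapping ranges, then Cd37 (0.550 TPM) and Cd79b (0.463 TPM), which overlapped with each other. The highest Cre- value of Cd79b (0.755 TPM) also lay above the lowest Cre- values of Klhl6 (0.664 TPM) and Cd79a (0.750 TPM). Cd22, Ms4a1, Blk and Pax5 formed a lower group at means of 0.0432 to 0.0744 TPM, separate from the genes above and overlapping with their neighbours. In Cre+ mice Klhl6 (2.36 TPM) stood second and alone, above Cd79a (1.29 TPM), Cd79b (1.14 TPM) and Cd37 (1.08 TPM), which overlapped. The lower group remained below the rest, at means of 0.0710 to 0.170 TPM. In every mouse Klhl6 was above Cd79b per length, with a ratio from 1.15 to 4.96 in Cre- mice and from 1.42 to 2.80 in Cre+ mice. Which cells the Klhl6 transcripts came from was not tested.

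**Figure D4:**
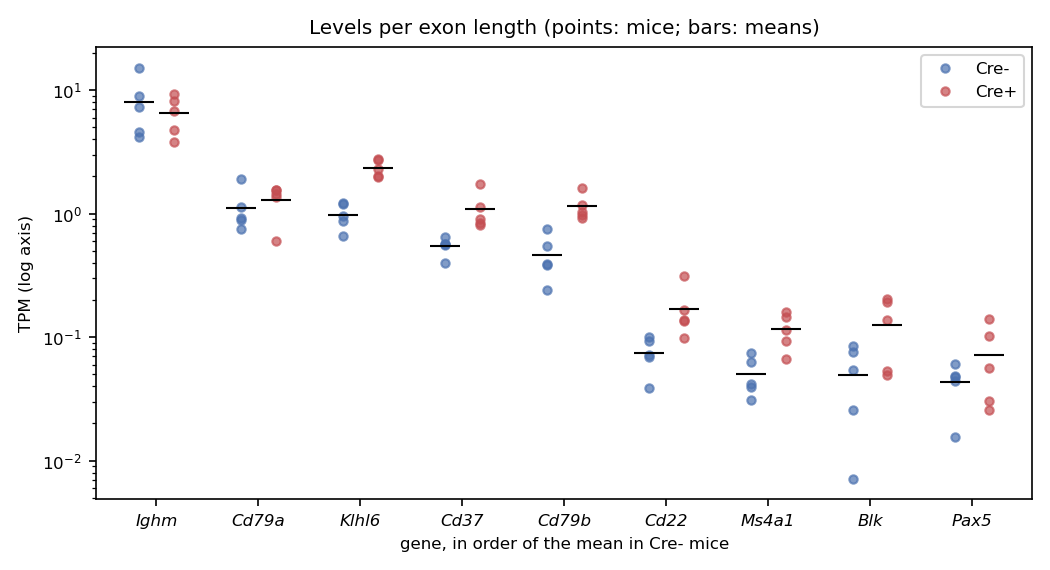
TPM of the 9 members on a log axis, in order of the mean in Cre- mice. Points are the 5 mice of each genotype and bars are means. Klhl6 overlaps with Cd79a in Cre- mice and lies above it in Cre+ mice, and Cd22, Ms4a1, Blk and Pax5 lie below the other 5 genes in both genotypes.

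Other genes of B cells were measured to see whether the lineage as a whole differed. Of a list of 25 further B cell genes, 19 were tested, 15 had a fold change above 0 and edgeR called 0. Before adjustment, p was under 0.05 for 6 genes in the higher direction and 0 in the lower, where 6.4% and 5.95% of all genes tested were. Their median log2 fold change was 0.27. Summed, they came to 7.08 to 7.99 CPM in Cre- mice and, without overlap, to 8.24 to 13.3 CPM in Cre+ mice, with Cre+ replicate 4 the highest and the other Cre+ mice at up to 9.57 CPM. In every single tested gene of the list the groups overlapped.

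Single genes of that list with small p were the transcription factor gene Spib (log2 fold change 1.42, SE 0.52), the Fc receptor-like gene Fcrla (0.93, SE 0.33) and the inhibitory receptor gene Btla (0.75, SE 0.23), with adjusted p-values of 0.293, 0.269 and 0.217 in edgeR.

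Genes of receptor signalling that other cells also use had a median near 0. Of 18 such genes, 18 were tested, 11 were above 0, edgeR called 0 (1 higher at an unadjusted p under 0.05) and the median log2 fold change was 0.03. Of all genes tested, 6.4% were higher at that unadjusted p. Rasgrp3, an activator of Ras, averaged 14.7 CPM without and 20.5 CPM with Cre (log2 fold change 0.47, SE 0.12), at an adjusted p of 0.121 in edgeR and 0.0166 in DESeq2. Of 13 plasma cell genes, 7 were tested, 5 were above 0 and edgeR called 0 (1 higher at an unadjusted p under 0.05), and Ighg3, an IgG heavy chain gene, had no count in any mouse. Xbp1, a factor of antibody secretion that other cells use in the unfolded protein response, had the smallest p of that list, with 0.52 (SE 0.16, adjusted p = 0.242 in edgeR).

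Partners of KLHL6 in its ubiquitin ligase had fold changes on both sides of 0. Of 6 listed genes, 5 were tested, 2 were above 0, edgeR called 0 (1 lower at an unadjusted p under 0.05) and the median was -0.15. Of all genes tested, 5.95% were lower at that unadjusted p. Cul3, the scaffold, had a log2 fold change of -0.15 (SE 0.08), Rbx1, the ring protein, 0.12 (SE 0.08), and Rc3h2, which encodes the human KLHL6 substrate roquin-2, -0.25 (SE 0.14). Rc3h1, which encodes roquin-1, had -0.32 (SE 0.12, adjusted p = 0.325 in edgeR).

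**Figure D5:**
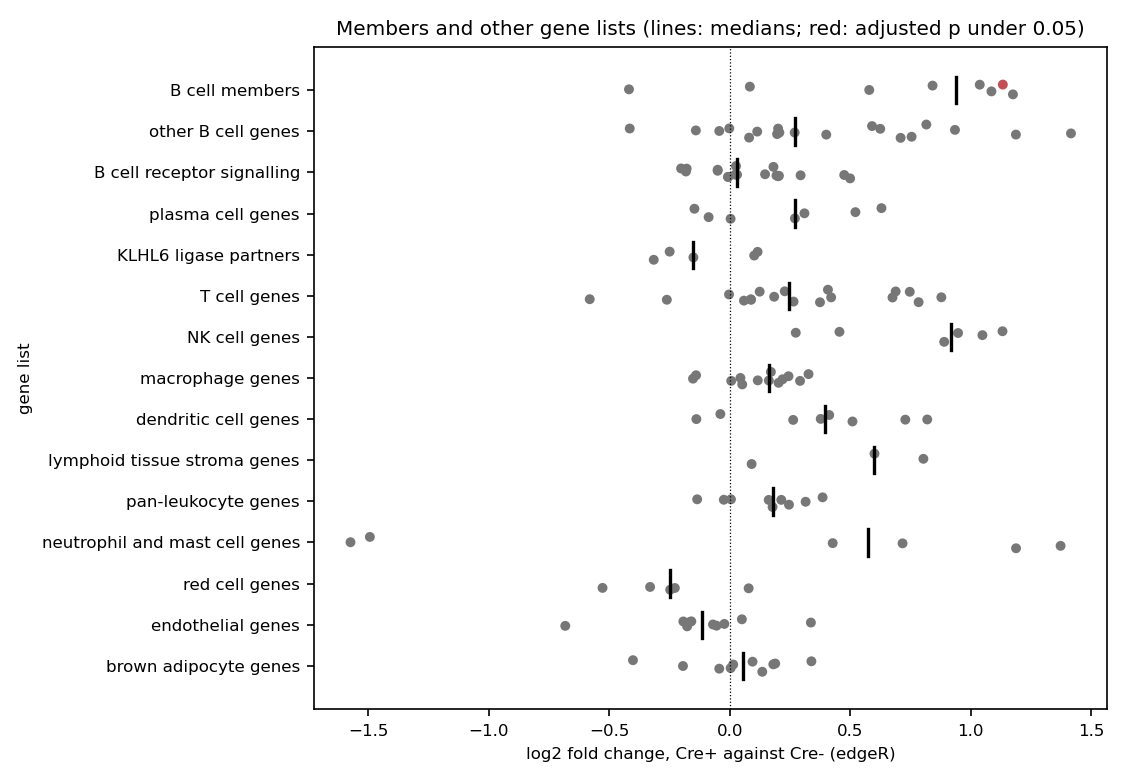
Log2 fold change, Cre+ over Cre- (x axis, edgeR), for the tested genes of each list (y axis, without the skeletal muscle list). Points are genes, lines are medians, and red marks an adjusted p under 0.05, which Klhl6 alone reached. The members have a median of 0.94 and the other B cell genes one of 0.27, with points on both sides of 0 in both lists.

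Markers of other leukocytes were read beside the B cell genes. NK cell genes had a median log2 fold change of 0.92 with 6 of 6 tested genes above 0, T cell genes 0.25 with 15 of 18, dendritic cell genes 0.39 with 6 of 8, macrophage genes 0.16 with 11 of 13 and genes shared by all leukocytes 0.18 with 7 of 9. EdgeR called 0 genes of these 5 lists. Before adjustment, p was under 0.05 for 2 NK cell genes, 3 T cell genes, 1 dendritic cell gene and 2 pan-leukocyte genes, all in the higher direction. No macrophage gene reached it. Of all genes tested, 6.4% were higher and 5.95% lower at that unadjusted p. Klrb1c (1.13, SE 0.44) and Prf1 (0.89, SE 0.33), genes of NK cells, and Xcr1 (0.82, SE 0.25) of dendritic cells are examples, with adjusted p-values of 0.318, 0.289 and 0.203. Summed NK cell genes ranged from 0.904 to 2.05 CPM in Cre- mice and from 1.75 to 2.83 CPM in Cre+ mice, and pan-leukocyte genes from 35.3 to 48.9 and from 37.9 to 54.2 CPM. Cre+ replicate 4, highest in 4 members and in the other B cell genes, was also highest in pan-leukocyte genes. Cre+ replicate 3 (49.0 CPM) and Cre- replicate 4 (48.9 CPM) followed with nearly the same sum. Cre- replicate 4 was the lowest of all mice in the summed other B cell genes (7.08 CPM).

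Genes of lymph nodes, blood and the tissue's own cells were read in the same way. Of 8 genes of lymphoid tissue stroma, Chst4 of high endothelial venules had no count in any mouse and 3 were tested, all above 0. Cxcl13, the chemokine of B cell follicles, had a log2 fold change of 0.80 (SE 0.69), Ccl21a 0.09 (SE 0.65) and Ltb, a lymphotoxin gene that lymphocytes also make, 0.60 (SE 0.25, adjusted p = 0.360 in edgeR). Summed, the list ranged from 1.06 to 3.38 CPM in Cre- mice and from 1.21 to 3.83 CPM in Cre+ mice. Red cell genes were at a median of -0.25, with 1 of 5 above 0, endothelial genes at -0.11, with 2 of 10, and brown adipocyte genes at 0.05, with 7 of 10. Neutrophil and mast cell genes had a median of 0.57 with 4 of 6 tested genes above 0 and lay on both sides of 0. Mcpt4 (1.19, SE 0.38) and Tpsb2 (1.37, SE 0.46) of mast cells had adjusted p-values of 0.237 and 0.254 in edgeR, and the neutrophil genes S100a9 (-1.49, SE 0.97) and S100a8 (-1.57, SE 1.03), the latter chosen after its values were seen, had 0.579 and 0.583. EdgeR called 0 genes of these lists, nor any of the 15 lists besides the members. DESeq2 called 3 over the 15 lists, among them Rasgrp3 and the endothelial receptor gene Kdr (0.34, SE 0.09). Of all genes that DESeq2 tested, it called 1.06% higher and 1.22% lower. An unadjusted p under 0.05 in edgeR was reached in the higher direction by 2 neutrophil and mast cell genes and 1 gene each of the stroma, endothelial and brown adipocyte lists, and in the lower direction by 1 red cell and 1 endothelial gene. Of all genes tested, 6.4% were higher and 5.95% lower at that unadjusted p. The part of these cells and tissues in the levels of the members was not tested.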

How the data were processed

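The submitters' processing notes name Trimmomatic, STAR, GRCm39 and featureCounts 2.0.1 as used by the authors, with no version for Trimmomatic and STAR. The deposited values are raw counts per gene of GENCODE M28, with each mate counted by itself, no use of strand and no reads with several alignments. The study's methods state poly(A) selection and paired-end sequencing.

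Genes were tested here with edgeR 4.0.16 in R 4.3.3 (TMM, filterByExpr with minimum count 10 and minimum total count 15, robust quasi-likelihood F test, Benjamini-Hochberg adjustment over 17690 genes, calls at an adjusted p under 0.05, no covariate). SE is the log2 fold change divided by the square root of F. Log2 CPM had a prior count of 2. TPM used the exon lengths in the files. Correlations were tested by 14400 exact pairings within genotypes, added to a design that gave them without a p. Alternatives were default DESeq2 1.42.0, quality-weighted voom in limma 3.58.1, size factors of DESeq2, library totals, other filters, a replicate block, and leaving out single libraries, 3 lettered or 2 muscle-rich libraries. Fits were checked on simulated counts.

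The members, the 15 other lists and the alternatives were chosen with earlier results of these data known. Named genes are RetSat, the members, the 4 genes of smallest p in each list and those without a count, and the 5 genes most like Klhl6 or the mean of the other members. Of these, a selection is given, values of 1 listed gene are not reported here, and Igkc, Scn4a, Arhgef1 and Tead2 were added after their values were seen. Symbols matched 52081 of 55414 genes. The labels name no littermates or shared preparation, and the mice were treated as independent. The paper speaks of control littermates, without saying which of these mice shared a litter. The p-values set the difference between the groups against the spread between these mice.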

Additional observations from a re-analysis of the deposited data

Results flagged for a closer look

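In groups of 5 mice, a single mouse that stood far from the other 4 was searched for among the 9 members and the summed levels of the 16 gene lists, 50 groups in all, and 6 were found where chance marks about 1 in 20 groups. That rate is for independent groups. These groups share the same libraries and hold the members both singly and summed, so an excess over chance was not shown. Cd79a was low in Cre+ replicate 5 at 0.341 CPM, with the other Cre+ mice at 0.767 to 0.891 CPM. Cd37 was low in Cre- replicate 1 at 0.621 CPM, with the other Cre- mice at 0.865 to 0.912 CPM. The other B cell genes were high in Cre+ replicate 4 at 13.3 CPM, with the other Cre+ mice at 8.24 to 9.57 CPM. Macrophage genes were high in Cre- replicate 4 at 129.8 CPM, with the other Cre- mice at 102 to 104 CPM. Skeletal muscle genes were high in Cre- replicate 2 at 506 CPM (others 1.12 to 18.7) and in Cre+ replicate 4 at 244 CPM (others 1.28 to 11.3).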

How the results depend on the processing

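EdgeR called 29 genes, and 393 were called by DESeq2, 147 by voom, 92 with no filter on low counts, 289 without both muscle-rich libraries, and 9 to 331 without single libraries (highest without Cre+ replicate 4). Genes called higher numbered 6, against 183 (DESeq2), 57 (voom), 17 (library totals), 31 (no filter), 94 (without both muscle-rich libraries) and 2 to 115 (single libraries). Of the members 1 was called, against 3 by DESeq2, 2 without both muscle-rich libraries, 0 without the 3 lettered libraries and 0 to 1 without single libraries. Other B cell genes called were 0, and 1 by DESeq2. Over all other lists 0 were called, 3 by DESeq2 and 0 to 1 without single libraries (1 without Cre+ replicate 4). The cause was not tested. Same-numbered mice of the 2 genotypes deviated together by correlations of -0.24 to 0.40. Differently numbered mice were not correlated for comparison, so these values do not settle whether the numbers pair the mice. With the replicate block 0 members and 23 genes were called (Klhl6 1.15, SE 0.19, adjusted p = 0.0625 in edgeR). Cd79a changed sign without Cre- replicate 1 (-0.028) or Cre- replicate 3 (-0.01), with -0.028 to 0.36 over single libraries, and the other 7 tested members kept their direction in every alternative that tested them. Library totals moved all genes by 0.07 on the log2 scale. Members with few counts, above all Blk, are limited by depth.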
